A study of Homo sapiens with 6 samples.

Results

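The distal part of the long arm of human chromosome 7 was described here, from 76.6 Mb to the end of the arm on GRCh38. It was taken as every row with a gene start of 76600000 or more on chromosome 7, which gave 807 genes of 30330, 455 of them protein-coding. The stretch was selected on the measured values of the comparison described below, because its genes had been higher in resistant cells, so every count and median over its members is a description and carries no test. Of the 807 members, 668 passed a filter on low values (at least 1 normalized read in at least 3 libraries) and are called tested members. Among them, 4 passed through the resistant libraries alone and 6 through the control libraries alone.

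RNA-seq libraries came from NCI-H1975, a lung adenocarcinoma cell line, in a control group of 3 libraries, and from H1975/OSI, a resistant group of 3 libraries. H1975/OSI is 1 derived line, selected from NCI-H1975 with osimertinib, a drug that blocks the kinase of the epidermal growth factor receptor, at doses raised from 0.03 to 3 µM over 7 months. Whether drug was in the medium at harvest, and how the control cells were kept, was not given in the sources used here. Nothing states that the libraries of a group were grown as separate cultures, so the p-values behind the calls below measure library-to-library spread alone, and that spread may be technical.

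Chromosome 7 carries growth signalling genes on both arms, with the epidermal growth factor receptor gene on the short arm (7p) and MET, BRAF and CDK6 on the long arm (7q). Distal 7q also holds a collagen chain gene, a neighbourhood of imprinted genes, and clusters of zinc finger genes. Gains and losses of chromosome 7 material are common in lung adenocarcinoma. Only RNA was measured, and DNA copy number was not analysed here.

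Recovered reads per library ran from 15174126 to 16276518 for resistant cells and from 15813497 to 16588479 for control cells. Among resistant libraries, number 1 differed most from its group. Over members with a mean of 100 or more, its median absolute log2 difference was 0.15 from resistant 2 and 0.16 from resistant 3, against 0.07 between resistant 2 and 3 and 0.08 to 0.10 between control libraries. The keratins KRT7, KRT8 and KRT18, markers of epithelium, were high in both groups, at 12803 ± 1139, 16385 ± 726 and 7556 ± 151 normalized reads in resistant cells and 13355 ± 528, 23304 ± 690 and 10013 ± 56.7 in control cells (SD, n = 3). Another keratin, KRT19, stood at 5874 ± 1717 and 12960 ± 420, and the mucin gene MUC1 at 2446 ± 367 and 1297 ± 116 (SD, n = 3). The lung marker NKX2-1 stood at 461 ± 21.0 and 287 ± 28.1, the surfactant gene SFTPB at 0.658 ± 1.14 and 3.58 ± 4.41, and the epithelial adhesion gene EPCAM at 17.6 ± 2.03 and 379 ± 21.9 (SD, n = 3). The endothelial marker CDH5 stood at 579 ± 105 and 126 ± 3.36, with VWF at 5.09 ± 3.73 and 2.73 ± 1.61 (SD, n = 3). PECAM1, also an endothelial marker, went the other way, at 83.26 ± 4.996 and 180.9 ± 21.39 (SD, n = 3). The leukocyte marker CD14 was lower in resistant cells too, at 266 ± 32.6 and 387 ± 0.794 (SD, n = 3). No values were found under the symbols of PTPRC and CD3E, the other leukocyte markers looked up.

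Distal 7q genes were on the whole higher in resistant cells, and 7p genes lower. The median log2 difference, resistant minus control, was 0.21 over the 668 tested members, with quartiles of -0.17 and 0.64, and 437 of them (65.4%) lay above 0. All log2 values here are of normalized reads plus 1. Over 23292 tested genes outside chromosome 7 the median was 0.01, and 50.6% lay above 0. In bulk libraries, a change in the make-up of the cells and a change in RNA per cell cannot be told apart.

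The short arm stood on the other side of 0. It was taken as every chromosome 7 gene before the widest gap between neighbouring gene starts, a gap of 6.34 Mb that ends at 63.8 Mb and spans the centromere. Over 432 tested 7p genes the median log2 difference was -0.30, and 33.6% lay above 0. The median over distal 7q exceeded that over 7p by 0.52 log2 units, a difference that centring each library on its median leaves as it is.

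The label of the region goes against the data in 1 respect: its lower boundary does not mark the start of the rise. Proximal 7q, between the gap and 76.6 Mb, had a median of 0.30 over 168 tested genes, with 66.7% above 0. Without resistant library 2 that median was 0.19, the same as over distal 7q without that library. The higher median was thus seen on both sides of the boundary, although some stretches of 7q lay near 0, as given below. Just outside the boundary, the tested genes FDPSP2, UPK3B and SPDYE16 differed by 0.62, 1.04 and 0.47 log2 units; none of them was called, their groups overlapped, and FDPSP2 and SPDYE16 had few reads. The pseudogene ENSG00000205485, which overlaps POMZP3, was called, at 1.10. Just inside it, POMZP3 was called, at 0.39, with groups that overlapped. That call was lost with DESeq2, median centring, quantile normalization and a pseudocount of 0.1. It was also lost on leaving out control library 1 or 3, or resistant library 1 or 2. The pseudogene ENSG00000214243, DTX2P1-UPK3BP1-PMS2P11 and SPDYE18 were not called, at 0.95, 0.01 and 0.70.

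The pattern was seen in each resistant library taken singly. The region was chosen on these same libraries, so their agreement is a description and not separate support. Against the mean of the control libraries, the median over tested members was 0.17, 0.23 and 0.23 in resistant libraries 1, 2 and 3. Each control library against the other controls gave 0.02, -0.00 and 0.01, and the resistant values did not overlap these. Such control differences average 0 for each gene by the way they are formed, so nothing is read from the lack of overlap. For 7p the same medians were -0.29, -0.34 and -0.27 in the resistant libraries and 0.02, 0.01 and -0.00 in the controls. Proximal 7q stood at 0.26, 0.34 and 0.28 against -0.01, 0.03 and 0.01.

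**Figure D1:**
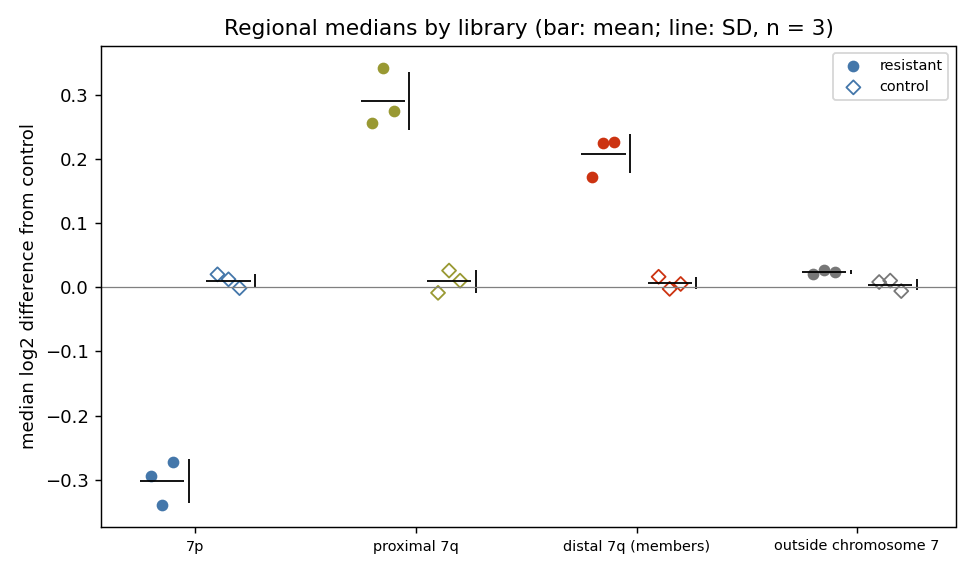
Median log2 difference from control (vertical axis) over the tested genes of 7p, proximal 7q, distal 7q and all chromosomes but 7, for each resistant library (filled) against the mean of 3 controls and for each control library (open) against the other controls. Bars are means and vertical lines SDs (n = 3); distal 7q lies between 0.17 and 0.23 and 7p between -0.34 and -0.27 in resistant libraries.

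With limma at an adjusted p under 0.05, 203 of the 668 tested members (30.4%) were called higher in resistant cells, where 20.4% of all 24560 tested genes were. In the other direction 82 members (12.3%) were called lower, where 21.1% of all tested genes were. In 222 members (33.2%) every resistant library lay above every control library, against 24.7% of all tested genes, and in 97 (14.5%) every resistant library lay below, against 25.4%. Since the region was chosen on this contrast, nothing is read from these counts. Among the called members 71.2% were higher, and 59.1% (159 higher, 110 lower) when each library was centred on its own median, which lowered every log2 difference by 0.13. On 7p, 51 of 432 tested genes (11.8%) were called higher and 153 (35.4%) lower. In proximal 7q, 51 of 168 (30.4%) were called higher and 15 (8.93%) lower. Without resistant library 1, the counts in distal 7q were 202 higher and 80 lower.

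The quartiles of the members, -0.17 and 0.64 log2 units, were both less than a 2-fold change. Of the 668 tested members, 86 were called higher with a rise of 2-fold or more, and 30 called lower fell by as much. Over all 24560 tested genes the same counts were 1930 and 1404. All 22 other chromosomes compared, which were the other autosomes and X, had a median below that of distal 7q, from -0.35 on chromosome 5 to 0.16 on chromosome 21. Only chromosome 5 lay below 7p. These ranks set parts of chromosome 7, split with the contrast known, beside whole chromosomes that were not chosen. Nothing is read from them.

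Distal 7q genes also took a larger part of each library. Their share of recovered reads was 3.42%, 3.20% and 3.23% in resistant libraries 1, 2 and 3 and 2.55%, 2.52% and 2.58% in control libraries, a ratio of 1.29 between the means. Without the 10 most abundant members the shares were 1.98% ± 0.053 and 1.72% ± 0.020 (SD, n = 3), a ratio of 1.15. The 7p share was lower in resistant cells, at 2.23% ± 0.036 against 2.82% ± 0.010 (SD, n = 3). Neither share overlapped between the groups in any library.

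Along the arm the rise was broad and uneven. In bins of 5 Mb counted from the boundary, 14 of 17 distal 7q bins had a median above 0. That count depends on the scaling, since centring each library on its median lowered every log2 difference by 0.13. The bins from 116.6, 126.6, 131.6 and 151.6 Mb, at 0.02, 0.09, 0.11 and 0.05, would then lie below 0. The first bin, from 76.6 Mb, had a median log2 difference of 0.60 over 20 genes, and the bin from 111.6 Mb 0.62 over 21. The bins from 86.6, 141.6 and 146.6 Mb stood at 0.43, 0.55 and 0.36 over 27, 47 and 72 genes. The gene-rich bins from 96.6 and 101.6 Mb had 0.18 over 120 genes and 0.31 over 62.

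Other stretches of the arm lay near 0. The median was -0.04 over 27 genes from 106.6 Mb, 0.09 over 77 from 126.6 Mb, 0.05 over 27 from 151.6 Mb and -0.03 over 21 in the last bin, from 156.6 Mb. Thinly filled bins, under 20 genes, gave 0.92 over 14 genes from 121.6 Mb, 0.02 over 13 from 116.6 Mb and -0.13 over 3 from 81.6 Mb. The 0.92 rested on genes with few reads: over the 5 genes of that bin with a mean of 100 or more, the median was 0.15. Over genes with such a mean, the first bin stood at 0.18 (9 genes) and the bins from 141.6 and 146.6 Mb at 0.19 (11 genes) and 0.17 (38 genes). The bins from 86.6 and 111.6 Mb stood at 0.40 (14 genes) and 0.54 (10 genes). The gene-rich bins from 96.6 and 101.6 Mb were near 0 by this measure, at 0.06 (60 genes) and 0.08 (23 genes). Those from 91.6 and 136.6 Mb stood at 0.24 (24 genes) and 0.29 (21 genes), against 0.24 and 0.20 over all their tested genes.

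On 7p, each of the 12 bins before 56.6 Mb had a median below 0, between -0.57 and -0.04. Both ends of that range came from thinly filled bins, -0.57 over 19 genes from 46.6 Mb and -0.04 over 10 from 11.6 Mb. The bin from 16.6 Mb was thin too, at -0.45 over 19 genes. The bin next to the gap held 5 tested genes with a median of 0.53, none of them with a mean of 100 or more. The bins of proximal 7q stood at 0.47, 0.33 and 0.16 from the gap to the boundary, over 65, 18 and 85 genes. Over genes with a mean of 100 or more they stood at 0.38 (17 genes), 0.31 (7 genes) and 0.07 (38 genes). The middle bin was thin, and resistant libraries 1, 2 and 3 gave medians of -0.01, 0.40 and 0.37 there. With bins of 10 Mb and without median centring, 88.9% of distal 7q bins lay above 0.

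**Figure D2:**
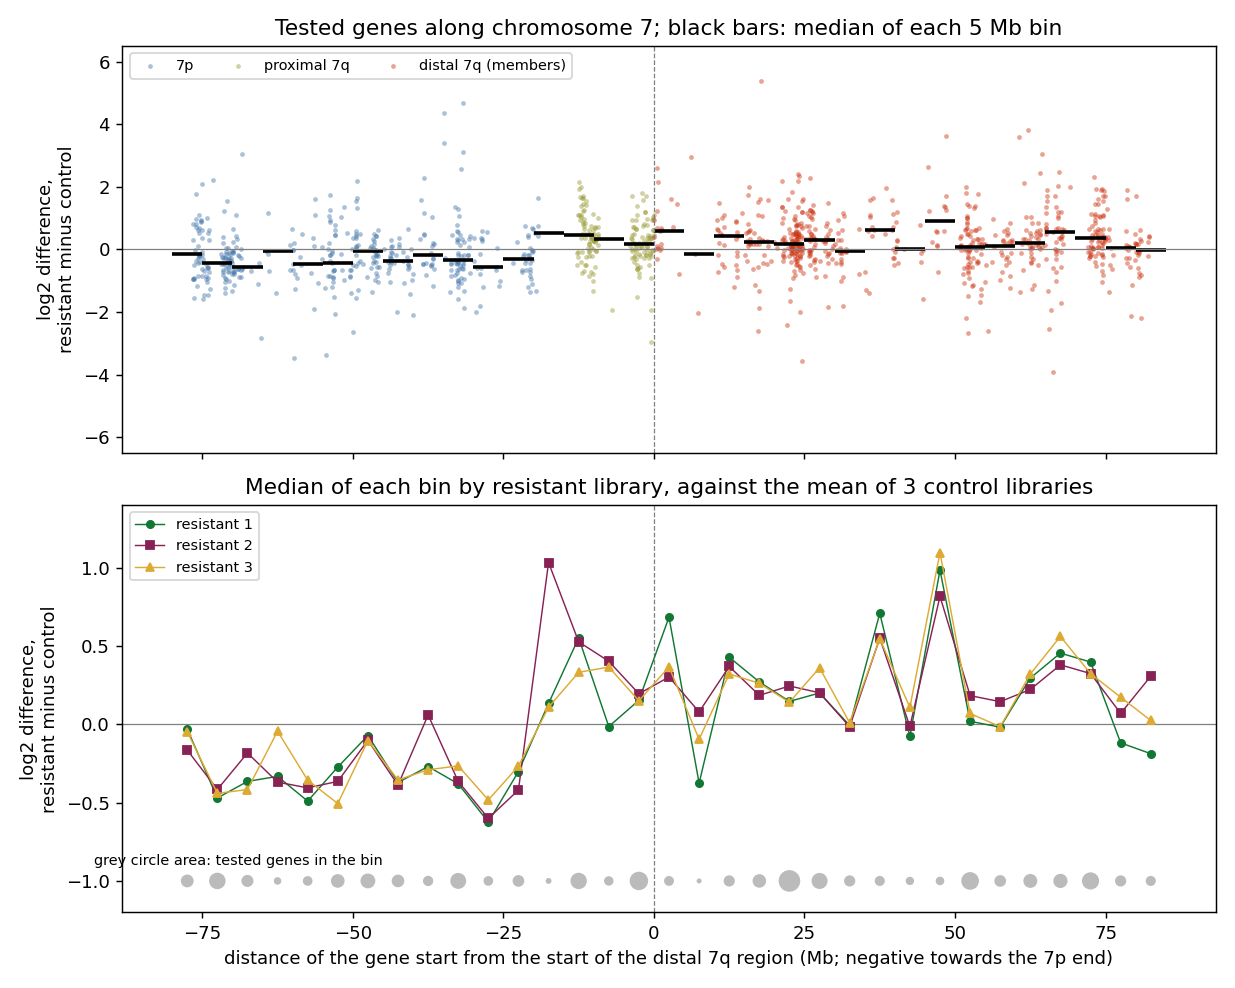
Upper panel: log2 difference, resistant minus control, of each tested chromosome 7 gene (point) against the distance of its start from the start of distal 7q in Mb, with the median of each 5 Mb bin as a black bar. Lower panel: bin medians of the 3 resistant libraries, with grey circles scaled to the number of tested genes; 14 of 17 distal 7q bins lie above 0 and the 12 bins of 7p before 56.6 Mb lie below it.

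Windows of 25 neighbouring tested genes showed the same shape without fixed borders. The window median was above 0 in 578 of 644 windows of distal 7q (89.8%), in 136 of 144 of proximal 7q (94.4%) and in 37 of 408 of 7p (9.07%). Neighbouring windows share genes, so these counts describe the profile only. They were taken without median centring, which would lower each window median by 0.13. The highest window of distal 7q, at 0.62, ran from LAMB4 to ENSG00000237813. The lowest, at -0.24, ran from ENSG00000271553 to SMKR1, within the bin from 126.6 Mb that holds FLNC and STRIP2. With windows of 50 genes, also without median centring, 94.5% of distal 7q windows lay above 0.

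Neighbouring genes did not all move together. Of 457 pairs of adjacent tested members that do not overlap, 60.0% had differences of the same sign, against 61.2% of pairs on 7p and 55.9% outside chromosome 7. Both genes of a pair lay above 0 in 44.9% of pairs in distal 7q, 14.7% on 7p and 28.0% outside chromosome 7.

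The displacement was of like size at every level of expression. Outside chromosome 7 the median went from 0.10 for means under 10 normalized reads to -0.08 for means of 1000 or more, so each tier was set beside its own counterpart there. The distal 7q median exceeded theirs by 0.18 log2 units for means under 10, by 0.20 for 10 to 100, by 0.21 for 100 to 1000 and by 0.17 for 1000 or more. The member medians themselves were 0.29, 0.33, 0.18 and 0.09 over 219, 147, 192 and 110 genes. The 7p median lay below the outside median by 0.30, 0.01, 0.36 and 0.35 log2 units in the same order, so the tier from 10 to 100 stood apart there.

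**Figure D3:**
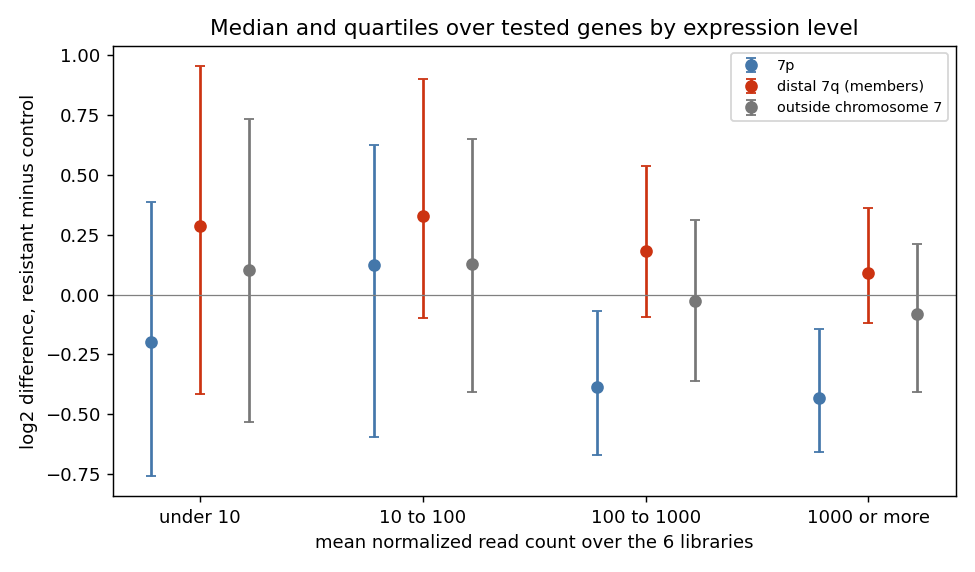
Median (point) and quartiles (bars) of the log2 difference, resistant minus control, over tested genes of 7p, distal 7q and the other chromosomes, by mean normalized read count over the 6 libraries. The distal 7q median lies above that of the other chromosomes in all 4 tiers, by 0.17 to 0.21.

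Kind of gene made little difference to the size. Against genes of the same biotype outside chromosome 7, the distal 7q median was higher by 0.20 for protein-coding genes (412 members, own median 0.18), by 0.17 for antisense and long intergenic RNAs (120) and by 0.26 for pseudogenes (84). Strand handling was not given in the sources used here, and 427 of the 668 tested members overlap another annotated gene, so that their reads cannot be told apart from those of the partner if strand was not used. The 241 members that overlap no gene had a median of 0.15, 0.17 above their counterparts outside chromosome 7. Members to which the deposited tables give a transcription factor family were an exception, with a median of 0.13 over 33 genes against 0.12 for such genes outside chromosome 7.

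The promoters of the members that moved furthest are shown next, to give the sequence upstream of the start. They are the genes with the largest rises and the largest fall under the naming rule that have an entry in the RefSeq promoter table (GRCh38.p14). Each is given 5′ to 3′ on the minus strand, which these genes use, and is trimmed to the bases upstream of the gene as drawn in the deposited annotation. Capitals mark matches on either strand to any of 6 short motifs. The GC box was searched as GGGCGG and the CCAAT box by the letters of its name. The TATA box was searched as TATAAA and the site of AP-1 factors as TGACTCA. The E-box was searched as CACGTG and the site of TEAD factors as GGAATG.
PCLO, chr7:82754013-83162930, promoter chr7:83162931-83163134: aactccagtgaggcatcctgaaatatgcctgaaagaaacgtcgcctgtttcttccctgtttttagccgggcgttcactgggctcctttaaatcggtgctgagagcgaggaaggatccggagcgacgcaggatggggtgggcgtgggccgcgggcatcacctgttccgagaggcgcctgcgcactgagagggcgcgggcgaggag
AASS, chr7:122075647-122144280, promoter chr7:122144281-122144499: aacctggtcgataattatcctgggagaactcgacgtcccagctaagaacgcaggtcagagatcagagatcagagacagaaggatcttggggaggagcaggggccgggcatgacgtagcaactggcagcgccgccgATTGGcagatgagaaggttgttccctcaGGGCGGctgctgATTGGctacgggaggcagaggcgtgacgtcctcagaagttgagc
VGF, chr7:101162509-101165593, promoter chr7:101165594-101165819: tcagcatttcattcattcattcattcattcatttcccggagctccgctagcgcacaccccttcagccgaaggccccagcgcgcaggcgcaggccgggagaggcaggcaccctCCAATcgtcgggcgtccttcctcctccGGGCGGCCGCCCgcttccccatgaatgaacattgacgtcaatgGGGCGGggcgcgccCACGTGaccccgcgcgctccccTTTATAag

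The AASS stretch held 1 GC box and 2 CCAAT boxes. The VGF stretch held 3 GC boxes, an adjacent pair of which reads GGGCGGCCGCCC, with 1 CCAAT box, 1 TATA box and 1 E-box. The PCLO stretch of 204 bases held none of these 6 motifs. A match says only that the letters are present.

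Across distal 7q, the share of promoters with each motif was close to that of other tested genes. Over the 250 bases before the start, 60.8% of the 403 tested members with an entry held a GC box, against 61.9% of 13099 tested genes outside chromosome 7. The shares were 34.5% and 34.1% for the CCAAT box, 7.20% and 6.56% for the TATA box, 3.72% and 3.25% for the AP-1 site, 8.19% and 8.25% for the E-box and 10.4% and 9.86% for the TEAD site. Over all 27305 promoters of the table, tested or not, the 6 shares in the same order were 42.3%, 33.0%, 11.1%, 4.16%, 6.49% and 11.9%. The median ratio of observed to expected CpG was 0.769 in members and 0.785 outside chromosome 7.

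The tested members were also grouped by role, and the counts of calls below stand beside 20.4% higher and 21.1% lower over all tested genes. Protein-coding genes were called more often. Of 412 protein-coding members, 161 (39.1%) were called higher and 66 lower. Outside chromosome 7, 25.5% of protein-coding genes were called higher and 29.1% lower. A share above 20.4% in a role is thus not read as particular to that role. Matrix, adhesion and contractile genes included both the largest rises and large falls. Of 23 tested genes of this role, 9 rose and 5 fell, with a median log2 difference of 0.54. COL1A2, which encodes the alpha 2 chain of type I collagen, stood at 30891, 28282 and 28654 normalized reads in resistant libraries 1, 2 and 3 and at 749, 718 and 628 in the controls. That is a 41.9-fold rise (log2 5.39 ± 0.07, SE), the largest of any member, with groups far apart. The partner chain gene COL1A1, which lies on another chromosome, stood at 4963 ± 300 and 4808 ± 428 (SD, n = 3). LUM, another fibroblast marker, had 13 reads in all resistant libraries together and 0 in the controls. PDGFRB, also a fibroblast marker, stood at 134 ± 15.8 and 100 ± 24.6 (SD, n = 3). No values were found under the symbol of DCN, also a fibroblast marker, and the part of other cell types in the COL1A2 rise was not tested.

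CALD1, which encodes the actin-binding caldesmon and was picked out after its values were seen as one of the most abundant members, stood at 7391, 7046 and 7324 in resistant and 4806, 4842 and 4906 in control libraries, a rise of 0.58 ± 0.06 log2 units (SE). Its groups did not overlap.

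Several genes of the same role fell. TFPI2, a secreted inhibitor of serine proteases, stood at 311, 337 and 331 in resistant and 1985, 1940 and 2042 in control libraries, a log2 difference of -2.60 ± 0.07 (SE). FLNC, the actin cross-linker filamin C, stood at 73.4, 53.5 and 64.1 against 455, 417 and 363, a difference of -2.68 ± 0.14 (SE). Resistant and control libraries were well separated in both genes. LAMB1, a laminin beta chain, went from 377 ± 19.4 in control to 108 ± 7.79 in resistant cells (SD, n = 3), and CAV1, the coat protein of caveolae, from 7847 ± 256 to 6552 ± 709 (SD, n = 3). CAV1 lost its call under quantile normalization.

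Growth factors, receptors and signal transducers went both ways, with 12 of 32 tested genes higher, 13 lower and a median of -0.05 (9 higher and 15 lower with median centring). VGF, the precursor of secreted neuropeptides, stood at 23.5, 14.8 and 19.7 in resistant and 245, 247 and 208 in control libraries. With a log2 difference of -3.55 ± 0.20 (SE), it fell furthest of the members that reach 100 reads. SEMA3A, a secreted guidance cue, stood at 487, 605 and 664 against 2291, 2338 and 2508 and fell by 2.03 on the log2 scale. EPHB4, an ephrin receptor, fell from 3669 ± 231 to 2312 ± 94.9 (SD, n = 3).

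The receptor MET, one of the genes for which 7q is known, was not called: it stood at 5423, 5317 and 5456 in resistant and 5841, 5759 and 5569 in control libraries, a log2 difference of -0.08 ± 0.06 (SE). All resistant values lay just below the control values, and under quantile normalization the difference was 0.05. GNB2, a G protein beta subunit, rose from 4643 ± 199 to 5458 ± 327 (SD, n = 3), and lost its call when libraries were centred on their medians. BRAF and CDK6, kinases of the mitogen and cell cycle pathways, were picked out as well-known 7q genes and not by the naming rule. BRAF stood at 630, 673 and 686 in resistant and 475, 471 and 480 in control libraries, and CDK6 at 1125, 1288 and 1485 against 872, 829 and 831. Both rose without overlap, by 0.48 ± 0.08 and 0.61 ± 0.08 log2 units (SE).

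A few genes of this and other roles with under 100 reads had larger differences than most of those named by the rule, and were picked out after their values were seen. PTN, the growth factor pleiotrophin, stood at 69.3, 48.0 and 54.3 in resistant and 6.16, 4.16 and 1.93 in control libraries. EPHB6, an ephrin receptor without kinase activity, stood at 2.04, 5.54 and 1.97 against 49.3, 61.3 and 65.5. ATP6V0A4, a subunit of the vacuolar proton pump, stood at 39.8, 44.3 and 46.4 against 1.03, 4.16 and 1.93. In all these genes the groups were well apart, with log2 differences of 3.59, -3.93 and 3.83.

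Of 46 tested chromatin and transcription factor genes, 20 rose and 2 fell, and the median was 0.18. With median centring 14 were higher and 4 lower, with a median of 0.04. Outside chromosome 7, genes given a transcription factor family were also more often called higher (30.9%) than lower (17.6%). TRIM24, a nuclear co-regulator, stood at 4410, 3905 and 4145 in resistant and 2071, 1998 and 2021 in control libraries, a log2 rise of 1.03 ± 0.06 (SE). CUX1, a homeodomain factor, rose from 2125 ± 110 to 2695 ± 98.1 (SD, n = 3). REPIN1, a zinc finger protein, was not called, at 3953 ± 226 in resistant and 4289 ± 287 in control cells (SD, n = 3). The falls were in EZH2, the methyltransferase of the Polycomb repressive complex, at -0.28, and NRF1, a regulator of mitochondrial genes, at -0.27.

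Zinc finger genes with names in ZNF, ZKSCAN or ZSCAN, a set put together after values were seen, were 21 in distal 7q. Of these 10 rose and 0 were called lower, with a median of 0.18. The same kind of gene outside chromosome 7 had a median of 0.20, with 172 of 478 called higher and 41 lower. In proximal 7q, 6 of 8 such genes were called higher and 1 lower. ZKSCAN1 stood at 2953, 2663 and 2807 in resistant and 1409, 1279 and 1348 in control libraries.

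Genes for DNA replication, repair and cell division had a median of -0.28, below that of the region. Of 13 tested genes 7 were called lower and 3 higher, and 7 and 1 with median centring. MCM7, a subunit of the replicative helicase, stood at 2739, 3069 and 3000 in resistant and 5201, 5217 and 5163 in control libraries. It fell by 0.82 on the log2 scale (SE 0.06), with the control libraries nearly equal and all above the resistant ones. MCM7 overlaps AP4M1 and 3 microRNA genes. NUP205, a nuclear pore scaffold, fell from 2729 ± 120 to 2082 ± 194 (SD, n = 3), while CUL1, the scaffold of a ubiquitin ligase, was not called, at 2017 ± 44.6 in resistant and 1901 ± 26.9 in control cells (SD, n = 3).

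Metabolic and mitochondrial genes were mixed, with 11 of 51 higher (21.6%), 9 lower (17.6%) and a median of 0.07. With median centring the balance turned, to 8 higher and 15 lower. AASS, which starts lysine breakdown in mitochondria, stood at 103, 92.3 and 107 in resistant and 18.5, 14.5 and 13.5 in control libraries, a log2 rise of 2.63 ± 0.23 (SE). PDK4, a kinase that switches off pyruvate dehydrogenase, stood at 353, 923 and 945 against 221, 228 and 231. Its groups did not overlap, but it was not called, and resistant library 1 lay near the controls. Its log2 difference was 1.57 with all libraries and 2.04 without resistant library 1.

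The most abundant metabolic genes by read count, which is not per length, stood slightly lower. NAMPT, the rate-limiting enzyme of NAD salvage, went from 26865 ± 1120 to 22025 ± 1897 (SD, n = 3), a log2 difference of -0.29. AKR1B1, aldose reductase, stood at 43418, 44603 and 43190 in resistant and 48878, 49468 and 49098 in control libraries, a difference of -0.17 that was called. That call was lost with edgeR and on leaving out any of 4 single libraries (resistant 2 or 3, control 1 or 2), and under quantile normalization the difference was 0.01. DLD, a subunit of several dehydrogenase complexes, was not called, at -0.12.

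Vesicle and actin genes had 10 of 28 higher, 2 lower and a median of 0.14 (7 higher and 3 lower with median centring). ESYT2, a tether between membranes, rose from 4062 ± 47.4 to 5494 ± 351 (SD, n = 3). BRI3 stood at 3241, 2435 and 2195 in resistant and 2020, 2053 and 1827 in control libraries. It was called higher, a call lost with edgeR, with median centring and without control library 1 or 3. MTPN, myotrophin, was not called, at 4172 ± 154 and 3766 ± 103 (SD, n = 3).

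Protein folding and ubiquitin genes had 9 of 17 higher and 2 lower, with a median of 0.22 (8 higher and 4 lower with median centring). CALU, a calcium-binding protein of the secretory pathway, stood at 10092, 9808 and 10263 in resistant and 6978, 6965 and 7252 in control libraries, a rise of 0.51 ± 0.06 log2 units (SE). UBE2H, a ubiquitin-conjugating enzyme, stood at 7392, 6894 and 6983 against 4582, 4672 and 4495, a rise of 0.63 ± 0.06 (SE). In both genes the groups were clearly apart. PDIA4, a disulphide isomerase, was not called, at 7728 ± 229 and 8251 ± 353 (SD, n = 3).

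RNA processing and translation genes stayed near 0 as a group, with 5 of 21 higher, 3 lower and a median of 0.02 (2 higher and 6 lower with median centring). SRRT, which works with the nuclear cap-binding complex, fell from 2033 ± 76.3 to 1386 ± 29.0 (SD, n = 3). SND1 was not called, at 5717 ± 44.1 and 5778 ± 235 (SD, n = 3). MKRN1, a ubiquitin ligase that binds RNA, was called higher at 0.18, a call lost with median centring and without control library 1 or 2 or resistant library 2.

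Interferon-linked antiviral genes had 4 of 10 higher and 1 lower, with a median of 0.16. TRIM56 rose from 1711 ± 54.3 to 2321 ± 95.0 (SD, n = 3), while the antiviral genes ZC3HAV1 and PARP12 were not called, at 0.02 and 0.15. Imprinted genes had 3 of 7 higher and 2 lower, with a median of 0.19. SGCE and PEG10, imprinted neighbours that overlap at their ends, differed in opposite directions. SGCE stood at 1989, 1724 and 1704 in resistant and 825, 881 and 877 in control libraries, a rise of 1.06 ± 0.07 (SE), and PEG10 at 3701, 4075 and 4363 against 5439, 5471 and 5371, a log2 difference of -0.43 ± 0.07 (SE). CPA4, a carboxypeptidase, rose by 0.32.

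Under median centring the medians of the metabolic and the RNA processing genes were -0.06 and -0.11, in place of 0.07 and 0.02. Those of the vesicle, interferon-linked, chromatin and imprinted genes dropped to 0.01, 0.02, 0.04 and 0.06, from 0.14, 0.16, 0.18 and 0.19. The medians of the other 4 roles were 0.41 for matrix, 0.09 for folding, -0.19 for growth factor and -0.41 for replication genes.

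**Figure D4:**
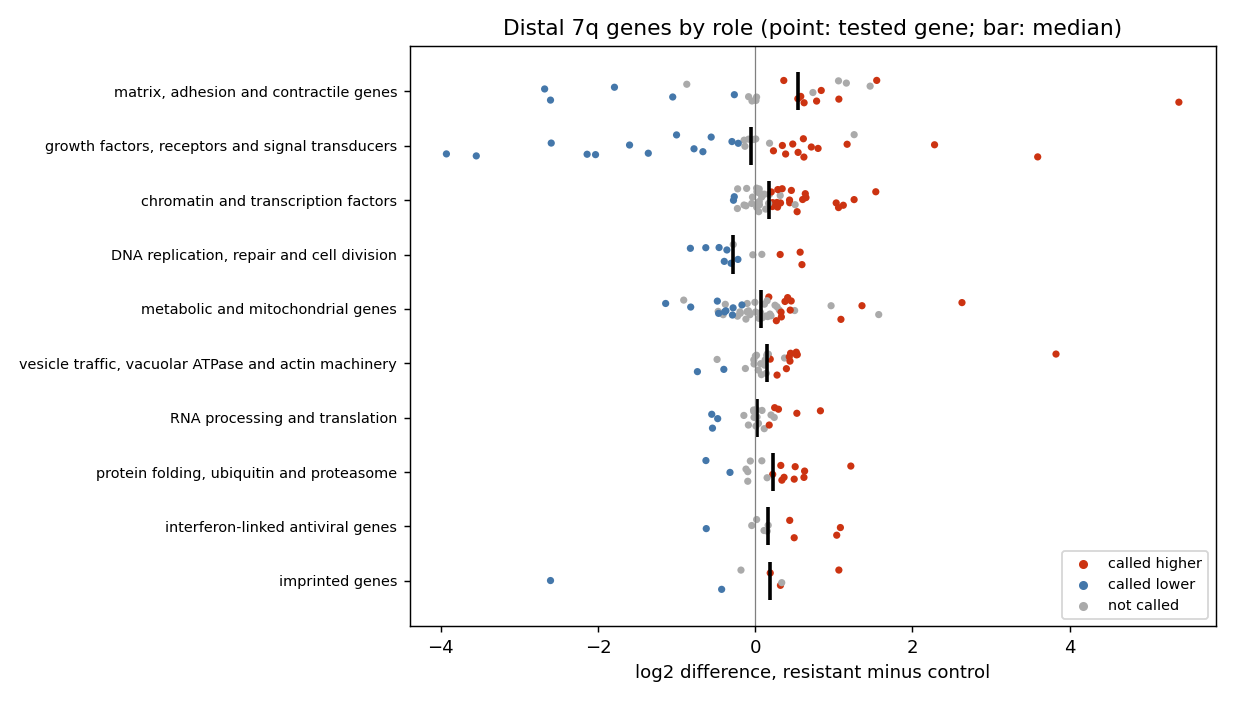
Log2 difference, resistant minus control (horizontal axis), of the tested distal 7q genes of 10 roles (rows); each point is a gene, coloured by its call, and black bars are medians. Medians run from -0.28 for DNA replication, repair and cell division to 0.54 for matrix, adhesion and contractile genes.

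Other large rises were in genes of none of these roles. PCLO, a scaffold of the presynaptic active zone, stood at 1221, 1256 and 1284 in resistant and 182, 151 and 156 in control libraries, a rise of 2.94 ± 0.09 (SE). KRBA1 stood at 1717, 1329 and 1344 against 321, 294 and 258, a rise of 2.32 ± 0.10 (SE). HILPDA, a lipid droplet protein, stood at 3563, 2319 and 2182 against 674, 653 and 667. Resistant library 1 was the highest in KRBA1 and HILPDA, and HILPDA rose by 1.98 log2 units with it and 1.76 without it.

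MGAM, the maltase-glucoamylase of the gut, stood at 480, 502 and 420 in resistant and 163, 151 and 164 in control libraries, a rise of 1.54 ± 0.11 (SE). STRIP2 stood at 401, 394 and 375 against 874, 853 and 914, a fall of 1.17 on the log2 scale. In MGAM, STRIP2, PCLO, KRBA1 and HILPDA no resistant library overlapped a control library.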

How the data were processed

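The authors deposited, for each library, values per Ensembl gene on a signal scale, with GRCh38 coordinates per the submitters' processing notes; aligner, counting tool and normalization tool are not given in the sources used here. In every library 100% of the deposited values were whole multiples of 1 number within 0.001 reads, so they were read as counts divided by 1 size factor per library, and whole reads were recovered by dividing by that number. Values were taken as log2(value + 1), kept at 1 or more in at least 3 libraries (24560 genes), and tested over the whole table with limma-trend (limma 3.58.1, R 4.3.3, robust, two-sided), with Benjamini-Hochberg adjusted p under 0.05 as the call. SE is that of the fit. The log2(value + 1) scale understates the change of low genes. edgeR 4.0.16 (quasi-likelihood) and DESeq2 1.42.0 were run on recovered reads as alternatives. The steps were tested on simulated data.

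The region's members, the gene lists and the naming rule were chosen with earlier results of these data known. The rule named the 8 top rises and the 6 top falls among protein-coding members at 100 or more normalized reads in the higher group, the 3 members of each role with the highest mean, and the 4 tested genes on each side of the boundary; 1 gene it named is not reported here. Promoters came from RefSeq (GRCh38.p14), matched by symbol.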

Additional observations from a re-analysis of the deposited data

How the results depend on the processing

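The distal 7q median lay above that of genes outside chromosome 7 under every setting, by 0.17 to 0.22 log2 units, and the 7p median lay below it by 0.23 to 0.37. The median over members itself moved to 0.077 with median centring, 0.18 over protein-coding genes and 0.15 without overlapping genes. Its excess over 7p was 0.43 with no filter, 0.57 over protein-coding genes, 0.58 with a pseudocount of 0.1 and 0.43 without overlapping genes. Without overlapping genes fewer genes were tested, and 74 members were called higher and 38 lower, with 22 and 64 on 7p. Without the trend in limma 54 members were called lower. Leaving out 1 library at a time gave 176 to 202 members higher and 66 to 80 lower. AKR1B1 was the only called gene among those named to change sign, to 0.0093 under quantile normalization. Genes not called that changed sign by scaling were MET (0.05), PDIA4 (0.04) and SND1 (0.12) under quantile normalization, and CUL1 (-0.05) and ZC3HAV1 (-0.12) under median centring. DTX2P1-UPK3BP1-PMS2P11, near 0, and SPDYE16, with few reads, also changed sign. The proximal 7q median ran from 0.16 to 0.36 over all settings. Of 600 values of named genes under other settings, 552 moved by less than 1 SD.

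Replicate numbers do not pair the libraries: same-numbered deviations correlated at -0.0015, 0.0001 and 0.0067. With a replicate block, 203 members were called higher and 81 lower, and 49 and 150 genes on 7p. A filter on the mean over all libraries was added after the data had been seen. The cause of the other differences between settings was not tested.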
